A study of Mus musculus with 4 samples.

Results

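The nuclear genes for subunits of respiratory chain complexes I to IV were followed in the liver RNA of 4 groups of mice. Members were the genes whose mouse symbol follows the naming pattern of these subunits, which is Nduf followed by a, b, c, s or v and a digit, Sdha to Sdhd, Uqcr, and Cox4 to Cox8. The array's transcript accessions matched 66 such genes among 23462 genes in all, and 61 of the 66 had a usable probe among 22047 genes with one. The usable members were 34 of 37 in complex I, 2 of 4 in complex II, 8 of 8 in complex III and 17 of 17 in complex IV. Ndufa4, Ndufb2, Ndufs1, Sdhc and Sdhd were left out because their spots carried an outlier flag on at least 1 array. No probe was matched to the coding genes Cox5b, Ndufb1, Ndufb4b and Ndufb4c, which were not analysed here.

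Whole liver of male mice that had fasted for 12 h was measured with 1 array per group. The groups were natural aging mice without drug treatment, aging diabetic mice (aging type 2 diabetic in the series title), aging diabetic mice given metformin, and aging diabetic mice given metformin and astragalus polysaccharide (APS), a polysaccharide from the root of a medicinal plant. Metformin, a biguanide that lowers blood glucose, is known to inhibit complex I in isolated mitochondria and cells. The titles carry 60 d, whose meaning the labels do not give, and the labels used here give no strain, age, dose or way of inducing diabetes, nor whether the RNA of a group is that of a single mouse or of pooled mice. With 1 array per group there was no test, and each difference below is one between 2 arrays.

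The respiratory chain sits in the inner mitochondrial membrane. Complex I takes electrons from NADH and complex II from succinate, both pass them to coenzyme Q, and complexes III and IV carry them on through cytochrome c to oxygen, while complexes I, III and IV pump protons that drive ATP synthase. Most subunits are encoded in the nucleus and made in fixed proportions, and several complex IV subunits have a second gene whose form is used in heart, skeletal muscle, testis, lung or brown fat. In the liver the chain burns the reducing equivalents of fatty acid oxidation and the citric acid cycle.

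Of the usable members, 8 were such tissue or alternative forms (Cox4i2, Cox6a2, Cox6b2, Cox7a1, Cox7b2, Cox8b, Cox8c and Ndufa4l2). The other 53 are called the ubiquitous subunits here. All 53 were well above background on all 4 arrays, as were 58 of the 61 usable members, and Cox8c was above background on none. Levels are log2 of the processed signal minus the log2 of the array's 75th percentile, so a level of 0 is the array's 75th percentile. Levels of different probes are not compared as amounts of RNA, because probes differ in how well they bind.

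Upstream sequences are shown for a pair of complex IV genes that behaved differently on these arrays, Cox6b1 and its testis form Cox6b2, and for Cox6a1, which carries both motifs known for control of respiratory genes. They are the 250 bases before the RefSeq transcription start in build GRCm38.p6, written on the gene's strand, with capitals marking matches on either strand to CCGGAAG, a core recognised by GABP (nuclear respiratory factor 2), and to GCGCATGCG, the core of the palindrome bound by nuclear respiratory factor 1. Cox6a1 lies at chr5:115348959-115349208, Cox6b1 at chr7:30626115-30626364 and Cox6b2 at chr7:4753095-4753344, all on the minus strand.
Cox6a1: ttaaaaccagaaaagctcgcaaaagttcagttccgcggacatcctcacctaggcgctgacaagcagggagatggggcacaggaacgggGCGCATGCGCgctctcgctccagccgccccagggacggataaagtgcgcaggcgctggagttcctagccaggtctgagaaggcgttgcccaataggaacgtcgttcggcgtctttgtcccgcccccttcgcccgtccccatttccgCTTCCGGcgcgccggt
Cox6b1: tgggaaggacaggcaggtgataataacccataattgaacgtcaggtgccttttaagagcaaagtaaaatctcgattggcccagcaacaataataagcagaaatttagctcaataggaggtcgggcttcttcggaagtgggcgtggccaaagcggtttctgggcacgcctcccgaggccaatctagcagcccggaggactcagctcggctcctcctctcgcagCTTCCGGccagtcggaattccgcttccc
Cox6b2: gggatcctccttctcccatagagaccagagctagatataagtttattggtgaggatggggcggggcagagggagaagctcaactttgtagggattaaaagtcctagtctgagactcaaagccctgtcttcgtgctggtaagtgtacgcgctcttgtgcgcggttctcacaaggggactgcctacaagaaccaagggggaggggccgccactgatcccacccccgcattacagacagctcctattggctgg

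Cox6a1 held 1 match to each motif, Cox6b1 held 1 match to CCGGAAG and none to GCGCATGCG, and Cox6b2 held neither. RefSeq entries were found for 52 of the 66 matched members, 48 of them not tissue or alternative forms, members left out for outlier spots included. CCGGAAG occurred in 8 of the 48 (16.7%), against 7.83% of the 27025 genes with an entry, and GCGCATGCG in 3 of the 48 (6.25%), against 1.64%. The genes with CCGGAAG were Cox6a1, Cox6b1, Ndufb6, Ndufb7, Ndufs3, Sdhd, Uqcr11 and Uqcrh, and those with GCGCATGCG were Cox6a1, Ndufa11 and Ndufa8. The sequence TATAAA, the letters of the TATA box, was found in 4 of the 48 (8.33%), against 14.3% of all genes, and in Cox7b2 among the 4 tissue forms with an entry. These counts describe letters in a window and not binding.

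The probes of the ubiquitous subunits lay at the bright end of every array, which bears on how scaling treats them. In the order natural aging, aging diabetic, metformin and APS plus metformin, which holds wherever 4 unlabelled levels follow below, their median signal was 34606, 33745, 34402 and 39897. The median probe was brighter than those of 96.9%, 97.0%, 96.9% and 97.2% of all genes with a usable probe. No spot was saturated. Since the array's 75th percentile itself was 2699.5, 3068, 3589 and 3406 in that order, the scaling decided much of what follows, and the directions of the subunits as a group are given on 2 or more scalings. In bulk liver, fewer cells of a type and less RNA per cell cannot be told apart.

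**Figure D1:**
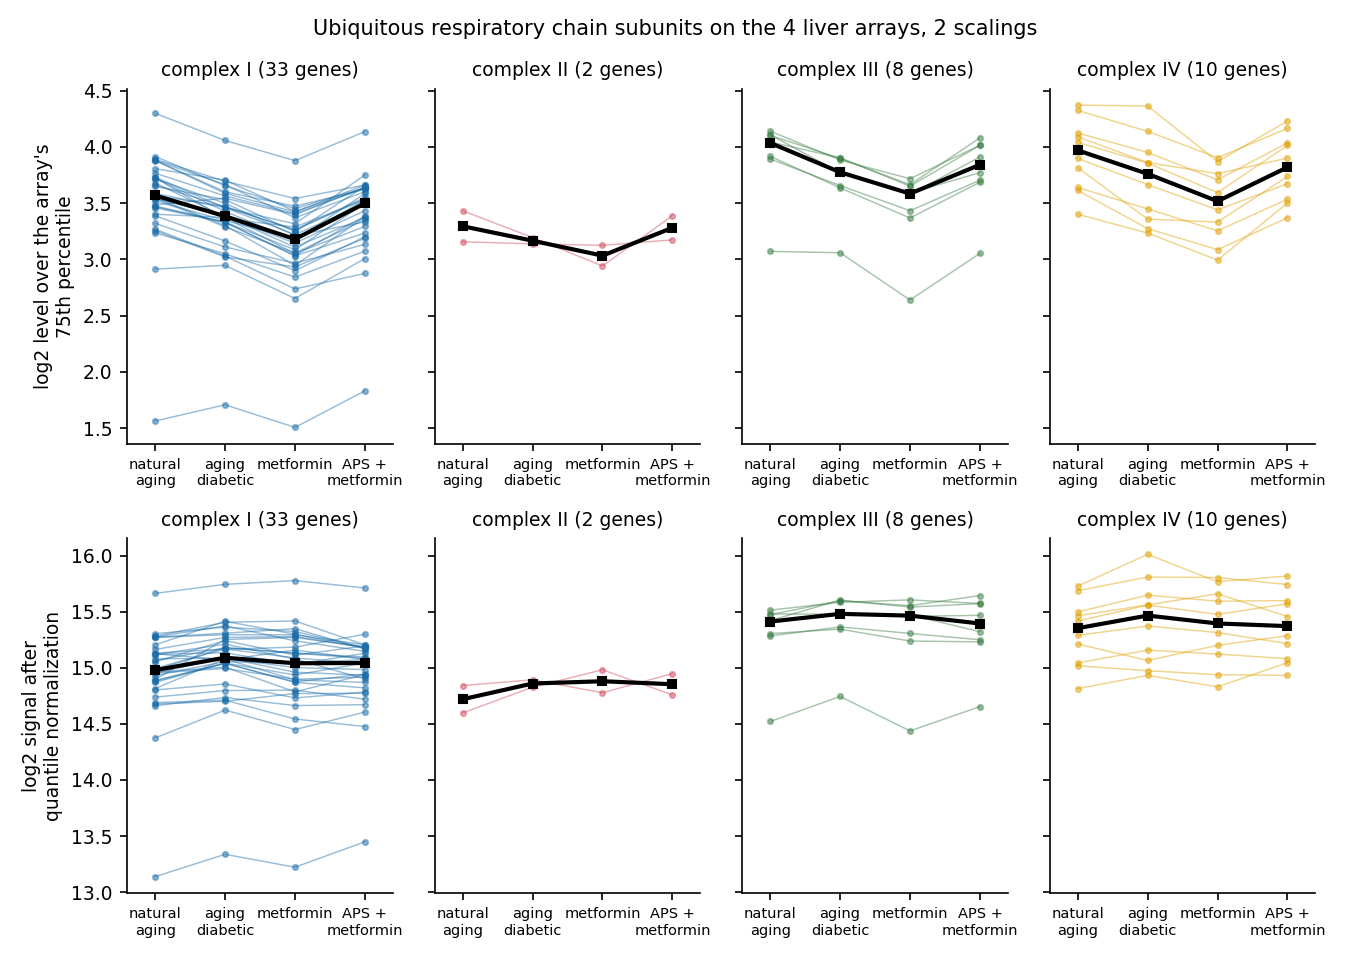
Levels of the 53 ubiquitous subunits on the 4 arrays, by complex, as log2 over the array's 75th percentile (top) and as log2 signal after quantile normalization (bottom). Thin lines are genes and black squares the median of the complex. On the top scale the medians of complexes I to IV run lowest on the metformin array, and on the bottom scale that dip is gone.

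In the aging diabetic liver the ubiquitous subunits differed little from those of the natural aging liver, and the sign of their difference hung on the scaling. Their median log2 difference (aging diabetic minus natural aging) was -0.20 on the 75th percentile scale, with 50 of 53 below 0, and 0.10 after quantile normalization, with 49 of 53 above 0. The median of all 14453 genes compared was -0.04 and 0.02 on these scales. By complex, tissue forms included, the medians were -0.20 for complex I, -0.13 for complex II, -0.24 for complex III and -0.18 for complex IV, and after quantile normalization 0.10, 0.14, 0.08 and 0.11.

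Among all 60 members compared, 2 were at least 2-fold higher on the aging diabetic array and 0 at least 2-fold lower, against 8.2% of all genes higher and 6.09% lower. Both were alternative forms, Cox6b2 and Ndufa4l2. None of the 53 ubiquitous subunits reached 2-fold in any of the 6 comparisons of the 4 arrays. One of them, Ndufb5, an accessory subunit of the membrane arm of complex I, reached 1.5-fold, in metformin against natural aging alone (-0.60, 1.52-fold lower, or -0.18 after quantile normalization).

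On the metformin array the ubiquitous subunits lay below those of the untreated aging diabetic array by a small amount. The median (metformin minus aging diabetic) was -0.23 on the 75th percentile scale, with all 53 below 0, and -0.06 after quantile normalization, with 40 of 53 below 0. Over the 7 scalings tried it ran from -0.40 to -0.01, and it was below 0 in 7 of 7. These are not 7 independent checks, since the series values lie close to the quantile ones. With the tissue forms included, the median of the 60 members was 0.02 without scaling. By complex, tissue forms included, the medians were -0.22 for complex I, -0.13 for complex II, -0.23 for complex III and -0.15 for complex IV. After quantile normalization they were -0.09, 0.02, -0.05 and -0.03. On the 75th percentile scale the members above 0 were all tissue or alternative forms, Cox4i2, Cox6a2, Cox7b2 and Cox8b in complex IV and Ndufa4l2 in complex I. The scanner software's own estimate put the error of a single difference at 0.163 for a typical ubiquitous subunit. That error covers measurement and not mice. A difference of -0.23 in a single subunit would be smaller than 2 such errors. The error of a median over 53 subunits was not estimated, so the error of a single difference does not tell whether this median differs from 0.

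In this comparison 3 of the 60 members were at least 2-fold higher and 0 lower, against 11.9% of all genes higher and 3.53% lower. The 3 were Cox6a2, Cox7b2 and Cox8b, again tissue forms.

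On the APS plus metformin array the ubiquitous subunits lay close to those of the aging diabetic array. Their median (APS plus metformin minus aging diabetic) was 0.06 on the 75th percentile scale, with 42 of 53 above 0, and -0.08 after quantile normalization, with 42 of 53 below 0. By complex, tissue forms included, the medians were 0.06, 0.12, 0.08 and 0.09 for complexes I to IV, and -0.09, -0.01, -0.06 and -0.06 after quantile normalization. Among the members, 0 were at least 2-fold higher and 1, Cox6b2, was lower, against 4.38% and 6.9% of all genes.

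Set directly against the metformin array, the APS plus metformin array held the ubiquitous subunits at a median difference of 0.28 on the 75th percentile scale, with all 53 above 0, but at -0.02 after quantile normalization, with 23 of 53 above 0. The medians by complex, tissue forms included, were 0.26, 0.25, 0.32 and 0.27 for complexes I to IV, and -0.04, -0.03, 0.00 and -0.05 after quantile normalization. Of the 60 members, 0 were at least 2-fold higher and 4 lower (Cox6a2, Cox6b2, Cox7b2 and Cox8b), against 2.37% and 12.4% of all genes.

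Against the natural aging array, the ubiquitous subunits of the metformin array had a median difference of -0.42 on the 75th percentile scale and 0.05 after quantile normalization. With 5 members at least 2-fold higher (Cox6a2, Cox6b2, Cox7b2, Cox8b and Ndufa4l2) and 0 lower, the background was 13.0% of all genes higher and 4.71% lower. For the APS plus metformin array against natural aging the median was -0.13, or 0.04 after quantile normalization, and 1 member (Cox6b2) was higher and 0 were lower, against 6.14% and 6.68% of all genes. The 6 comparisons share arrays, so their values are not independent of each other.

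**Figure D2:**
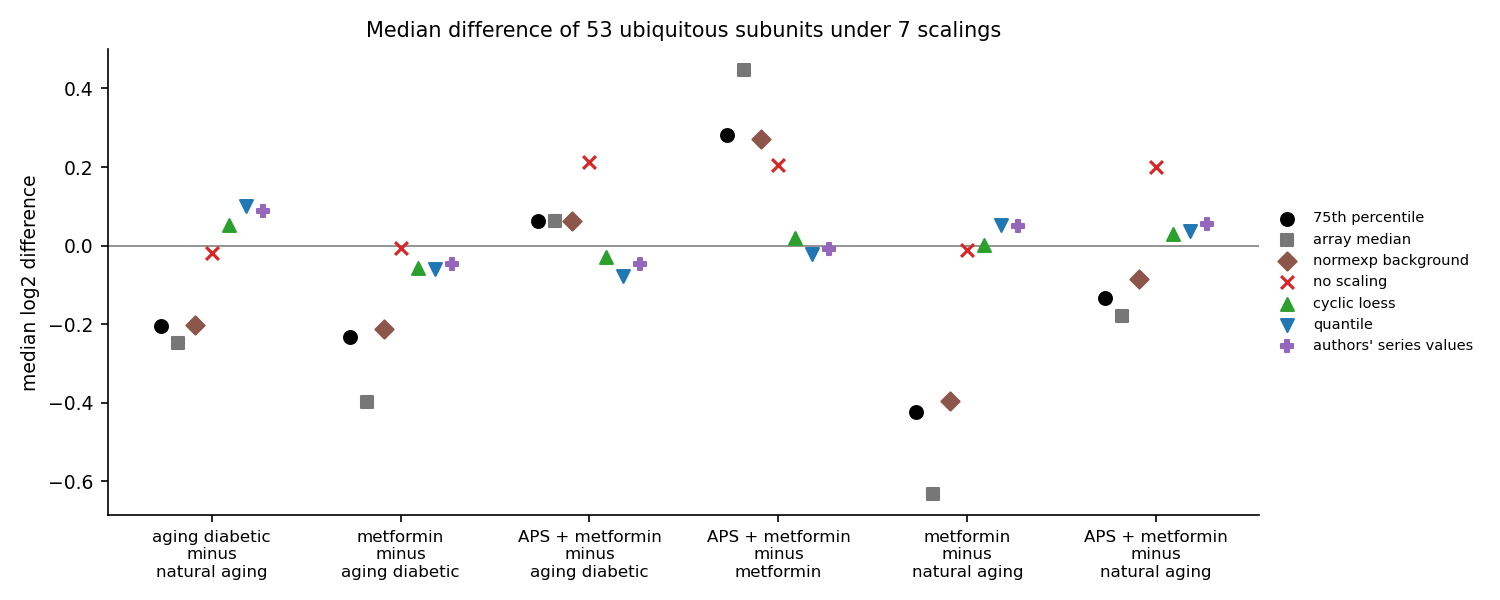
Median log2 difference of the 53 ubiquitous subunits (y axis) in the 6 comparisons (x axis) under 7 ways of scaling the arrays, 1 marker each. The metformin minus aging diabetic medians all lie below 0, from -0.40 to -0.01, and the other 5 comparisons have markers on both sides of 0.

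The scalings also moved the median of all genes. Without any scaling between arrays that median was 0.39 for metformin minus natural aging and 0.21 for metformin minus aging diabetic. Relative to the median of all genes under the same scaling, the ubiquitous subunits in metformin minus aging diabetic lay at -0.23 on the 75th percentile scale, -0.22 without scaling, -0.21 after normexp background correction, -0.12 after cyclic loess, and -0.06 both after quantile normalization and in the authors' series values. In metformin minus natural aging the same distance was -0.42, -0.40, -0.40, -0.13, 0.01 and 0.00 in that order. Scalings that hold the bright end of the arrays level (quantile, cyclic loess and the series values) gave the smaller distances.

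The ubiquitous subunits kept closely together. On the 75th percentile scale, the SD of the 53 differences was 0.109 in aging diabetic minus natural aging, 0.086 in metformin minus aging diabetic, 0.105 in APS plus metformin minus aging diabetic and 0.099 in APS plus metformin minus metformin. After quantile normalization these SDs were 0.0911, 0.0924, 0.103 and 0.111. Each of these is below the error of 0.163 that the scanner software gave for a single difference. All genes above background on both arrays had SDs of 0.725, 0.698, 0.641 and 0.695 on the 75th percentile scale in the same comparisons. Within 0.2 of the median lay 49, 50, 48 and 51 of the 53 subunits, against 33.6%, 37.1%, 37.1% and 31.0% of all genes around theirs, on the same scale. Bright probes have a smaller measurement error than dim ones, and the part of brightness in this narrow spread was not tested.

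Ndufv1, Ndufv2, Ndufs7 and Ndufs8 carry redox centres of complex I. Ndufv1, which binds NADH and flavin mononucleotide, had levels of 3.59 on natural aging, 3.46 on aging diabetic, 3.22 on metformin and 3.49 on APS plus metformin. Ndufs8, an iron-sulfur protein, had 3.89, 3.69, 3.54 and 3.66. Ndufv2 had 3.68, 3.38, 3.14 and 3.43, and Ndufs7 3.81, 3.70, 3.43 and 3.63. The metformin array was the lowest for all 4 on the 75th percentile scale, but for none of them after quantile normalization. There Ndufv1 was lowest on natural aging, and Ndufv2, Ndufs7 and Ndufs8 on APS plus metformin. Ndufs8 was highest on metformin there (15.42). Ndufs1, which holds several iron-sulfur clusters, had outlier spots; with these kept it differed by 0.05 in aging diabetic minus natural aging and by -0.48 in metformin minus aging diabetic, or by 0.31 and -0.37 after quantile normalization. Ndufb8, an accessory subunit of the membrane arm often used to follow complex I assembly, read 3.54, 3.38, 3.11 and 3.37.

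Ndufa11, an accessory subunit of the membrane arm, stood farthest above the median ubiquitous subunit in aging diabetic against natural aging, by 0.35 on the 75th percentile scale. Its levels were 1.56, 1.71, 1.51 and 1.83 on the natural aging, aging diabetic, metformin and APS plus metformin arrays. Its distance was 0.37 in metformin against natural aging and 0.40 in APS plus metformin against natural aging, comparisons that share the natural aging array. Ndufa7 was next in aging diabetic against natural aging, 0.26 above the median. At the lower end lay Ndufa10 in aging diabetic against natural aging (-0.36 itself), Ndufs4, a small subunit on the peripheral arm, in APS plus metformin against natural aging (-0.39), and Ndufb5 in metformin against aging diabetic (-0.35). On the 75th percentile scale Ndufc2 had the largest positive difference of complex I in both comparisons of APS plus metformin with the diabetic groups, 0.29 against aging diabetic and 0.43 against metformin, or 0.13 and 0.12 after quantile normalization.

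Complex II rested on 2 usable genes that did not move alike. Sdha, the flavoprotein that oxidises succinate, had levels of 3.16 (natural aging), 3.14 (aging diabetic), 3.12 (metformin) and 3.17 (APS plus metformin). Sdhb, the iron-sulfur subunit, had 3.43, 3.19, 2.94 and 3.39. On the 75th percentile scale Sdha thus stayed within 0.05 across the arrays while most members were lowest on the metformin array. It stood 0.22 above the median subunit in metformin against aging diabetic. After quantile normalization Sdha was not level, with 14.60, 14.83, 14.98 and 14.76, highest on metformin. The second Sdha probe was not level on the 75th percentile scale, with 2.82, 2.52, 2.34 and 2.54. The membrane anchors Sdhc and Sdhd had outlier spots. With these kept, Sdhd differed by 0.36 in aging diabetic minus natural aging and by -0.85 in metformin minus aging diabetic, and Sdhc by -0.05 and -0.51. After quantile normalization these were 0.66 and -0.64 for Sdhd, and 0.15 and -0.41 for Sdhc.

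In complex III all 8 subunits lay below 0 in aging diabetic minus natural aging on the 75th percentile scale, from -0.34 for Uqcr11, a small accessory subunit, to -0.01 for Uqcrfs1, the Rieske iron-sulfur protein, while 7 of 8 lay above 0 after quantile normalization. Uqcrfs1 had levels of 3.07, 3.06, 2.64 and 3.05 on the natural aging, aging diabetic, metformin and APS plus metformin arrays, so the metformin array stood apart from the other 3 on this scale. After quantile normalization Uqcrfs1 had 14.52, 14.75, 14.44 and 14.65, with the metformin array close to natural aging. Its difference in metformin minus aging diabetic was -0.42, or -0.31 after quantile normalization, the largest negative one of the complex on both scales. Uqcrc2, a core protein of the matrix side, had 4.10, 3.90, 3.66 and 4.08. It differed by 0.18 in APS plus metformin minus aging diabetic and by 0.42 against metformin, or by 0.05 and 0.09 after quantile normalization. The other complex III genes ranged between levels of 3.37 and 4.14.

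In complex IV, Cox4i1, the general form of the largest nuclear subunit, had levels of 4.37 (natural aging), 4.36 (aging diabetic), 3.87 (metformin) and 4.23 (APS plus metformin). Its metformin minus aging diabetic difference of -0.49 (error 0.163) was the most negative of the 53 ubiquitous subunits on the 75th percentile scale. After quantile normalization it was -0.24, and Uqcrfs1 was the more negative. Cox6c, a small subunit at the membrane, had 3.81, 3.36, 3.33 and 3.74, lower on the aging diabetic and metformin arrays than on the other 2. After quantile normalization it had 15.21, 15.07, 15.20 and 15.29, low on the aging diabetic array alone. On the 75th percentile scale Cox6c lay 0.25 below the median subunit in aging diabetic minus natural aging and 0.32 above it in APS plus metformin minus aging diabetic. Cox6b1, which lies on the cytochrome c side, had 3.40, 3.23, 2.99 and 3.50 and a difference of 0.51 in APS plus metformin minus metformin. That was the largest positive one of the members on the 75th percentile scale, but after quantile normalization it was 0.22, below Ndufa11 (0.23) and Cox4i2 (0.39). Cox7a2l, which the naming pattern includes but which is a supercomplex assembly factor, had 3.90, 3.66, 3.44 and 3.67.

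**Figure D3:**
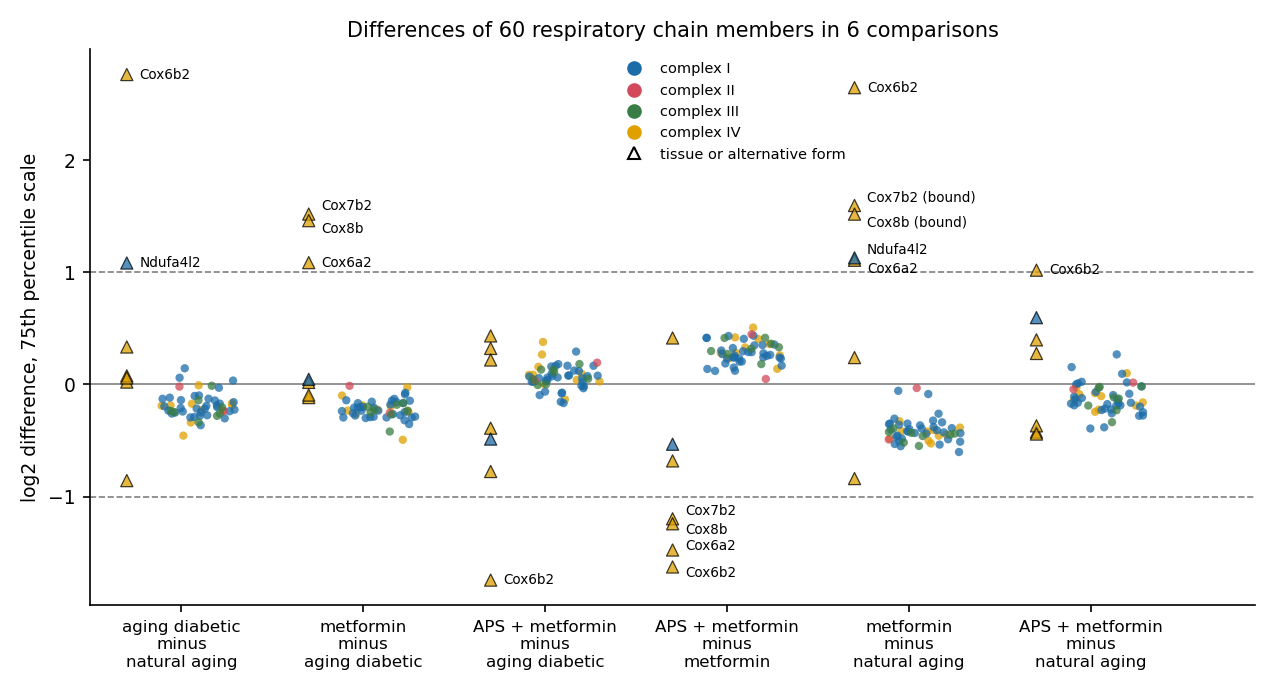
Log2 differences of the 60 compared members on the 75th percentile scale (y axis) in the 6 comparisons (x axis), coloured by complex, with circles for the 53 ubiquitous subunits and triangles for the tissue or alternative forms; dashed lines mark 2-fold. The circles stay in narrow bands between -0.60 and 0.51, and only triangles pass the dashed lines.

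The tissue and alternative forms were where single members differed. Cox6b2, the testis form of Cox6b1, had levels of -3.44 (natural aging), -0.68 (aging diabetic), -0.79 (metformin) and -2.42 (APS plus metformin). It was thus high on the aging diabetic and metformin arrays, low on the natural aging array and between them with APS. The aging diabetic array stood 6.79-fold above natural aging (log2 2.76, error 0.224), and the metformin array 6.26-fold. The APS plus metformin array was 3.35-fold lower than aging diabetic (log2 -1.74, error 0.174) and 3.09-fold lower than metformin. Over the 7 scalings the first of these log2 differences ran from 2.24 to 2.95 and that of APS plus metformin against aging diabetic from -1.81 to -1.48. APS plus metformin was 2.03-fold above natural aging, a difference that passed 2-fold in 6 of 11 settings of scaling, probe choice and filter.

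Cox6b1 had no such pattern: its aging diabetic minus natural aging difference was -0.17 (0.163 error) and its highest level was on the APS plus metformin array. Cox6b2 rested on 1 probe, which was well above background on all 4 arrays.

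Ndufa4l2, a relative of Ndufa4 known to be induced in hypoxia, had levels of -4.24, -3.15, -3.11 and -3.64 on the natural aging, aging diabetic, metformin and APS plus metformin arrays. The aging diabetic array was 2.12-fold above natural aging (log2 1.08, error 0.329), and over the scalings this log2 difference ran from 0.56 to 1.27. Ndufa4l2 is placed in complex I here by its name, although Ndufa4 is now counted as a complex IV subunit. With outlier spots kept, Ndufa4 itself differed by -0.23.

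Cox6a2, Cox7b2 and Cox8b, forms known from heart and skeletal muscle (Cox6a2, Cox8b) and testis (Cox7b2), were all brightest on the metformin array and dim on all arrays. Cox6a2 had levels of -4.19, -4.17, -3.08 and -4.56 on the natural aging, aging diabetic, metformin and APS plus metformin arrays. Cox7b2 was too dim on natural aging and had -4.44, -2.92 and -4.12 on the other 3, and Cox8b, likewise dim on natural aging, had -4.46, -2.999 and -4.24. The dimmest spots called well above background, taken here as the detection limit, lay between -4.95 and -4.52 on the same scale, so these levels are near the limit of detection.

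In metformin against aging diabetic the log2 differences were 1.09 for Cox6a2 (error 0.268), 1.52 for Cox7b2 (error 0.305) and 1.46 for Cox8b (error 0.324). All 3 stayed above 0 under the 7 scalings, with lowest values of 0.78, 0.88 and 0.88, and none of the 3 reached 2-fold after normexp background correction. Cox6a2 also missed 2-fold with the array median, after quantile normalization and in the series values, and passed it in 7 of 11 alternative settings, while Cox7b2 and Cox8b passed it in 9 of 10. In APS plus metformin against metformin they differed by -1.48, -1.20 and -1.24. Against the natural aging array, metformin was at least 3.02-fold higher for Cox7b2 and at least 2.86-fold higher for Cox8b; such a bound sets the bright level against the detection limit of the dim array.

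On the metformin array 37402 of 59305 spots were well above background, against 33668 on natural aging, 34895 on aging diabetic and 35743 on APS plus metformin. Of 8 striated muscle markers, 2, 2, 5 and 3 were above background on the natural aging, aging diabetic, metformin and APS plus metformin arrays, and the log2 of their summed level ran from -1.15 on aging diabetic to -0.55 on metformin. Ckm and Mb, muscle creatine kinase and myoglobin, were above background on none of the arrays. Of 4 brown fat markers, 3 were above background on every array and Ucp1, the defining one, on none. The log2 of their summed level ran from 1.55 on aging diabetic to 2.83 on APS plus metformin. That highest sum rested on Ppargc1a, also a regulator described below, which had 2.66 there. Cidea and Elovl3 were lowest on that array. Cidea and Elovl3 of that list, which the liver also expresses, were 3.92-fold and 2.02-fold higher on metformin than on aging diabetic. Cidea had levels of -0.22, -0.59, 1.38 and -0.70, highest on metformin. Elovl3 had 1.41, -1.78, -0.77 and -2.84, highest on natural aging. The part of muscle or brown fat RNA or of the dim end of the scale in the values of Cox6a2, Cox7b2 and Cox8b was not tested.

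Cox4i2, the lung form of Cox4i1, and Cox7a1, the heart and muscle form of Cox7a2, were above background everywhere and did not reach 2-fold. Cox4i2 had levels of 1.12, 0.26, 0.28 and 0.70, and its aging diabetic minus natural aging difference of -0.86 (error 0.164) was the most negative of all members in that comparison. Cox7a1 had -0.39, -0.06, -0.15 and -0.83, lowest with APS plus metformin. Cox7a1 differed by -0.78 (error 0.165) in APS plus metformin minus aging diabetic, and it was below 0 there under all 7 scalings.

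**Figure D4:**
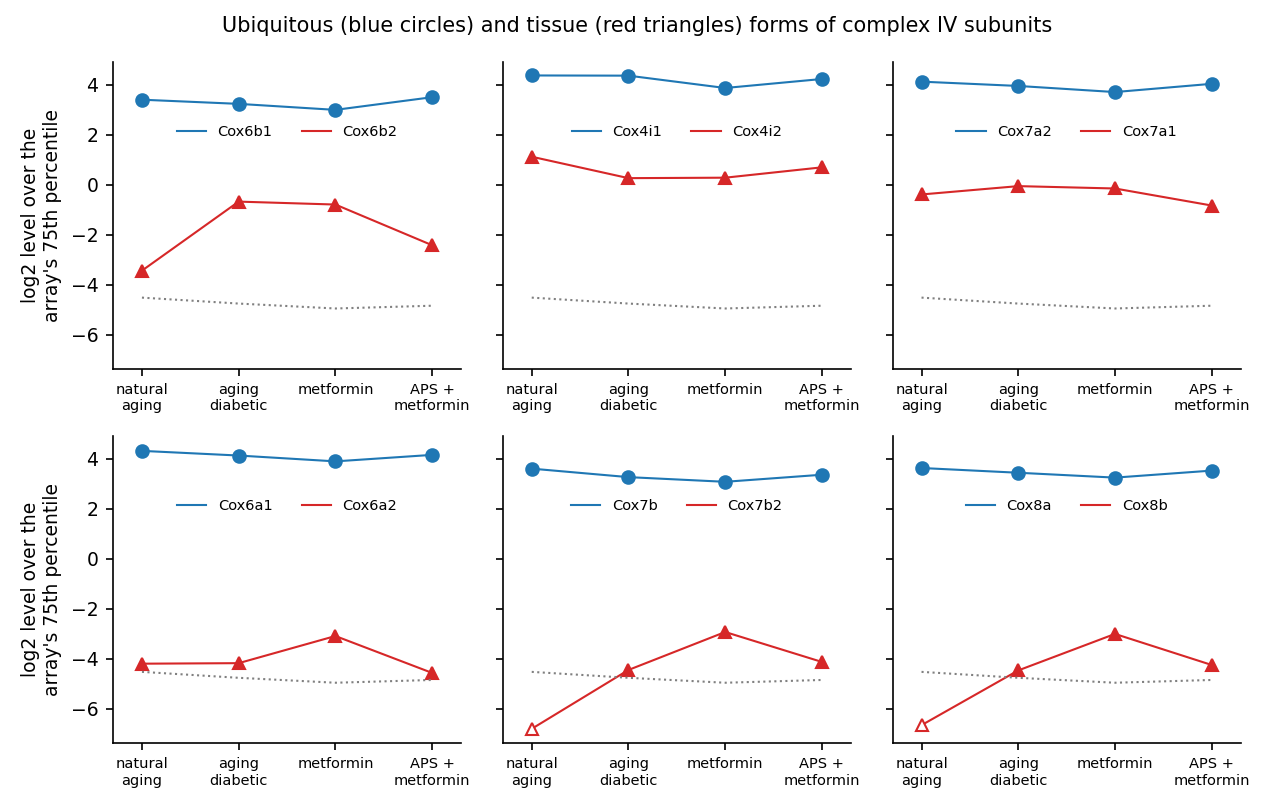
Levels on the 4 arrays of 6 ubiquitous complex IV subunits (blue circles) and their tissue forms (red triangles), as log2 over the array's 75th percentile; open symbols are not well above background and the dotted line is the detection limit (the dimmest spot called well above background). Cox6b2 runs from -3.44 to -0.68 while Cox6b1 stays between 2.99 and 3.50; heights of different probes are not comparable.

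Second probes were used to see how far the choice of probe mattered. Of the members, 7 had another usable probe above background on all 4 arrays, among them Cox7c, Ndufa10 and Sdha. The median gap between the 2 probes' differences, without sign, was 0.04 in aging diabetic minus natural aging, 0.17 in metformin minus aging diabetic, 0.18 in APS plus metformin minus aging diabetic and 0.25 in APS plus metformin minus metformin. Ndufb8 had a second probe, for another transcript of the gene, with levels of -1.25, -1.81 and -1.34 on the natural aging, metformin and APS plus metformin arrays but not well above background on the aging diabetic array. By that probe natural aging was at least 11.3-fold above aging diabetic, which the chosen probe, at 3.54 and 3.38, did not show.

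The neighbouring pathways were described from lists of genes. Their genes past 2-fold are to be read beside the shares of all genes given above for each comparison. The 13 usable of 18 ATP synthase (complex V) genes had none past 2-fold in any comparison, and their medians were -0.29, -0.21, 0.12 and 0.30 in aging diabetic minus natural aging, metformin minus aging diabetic, APS plus metformin minus aging diabetic and APS plus metformin minus metformin. After quantile normalization these were 0.02, -0.04, -0.04 and -0.03. The same order of medians was -0.36, -0.15, 0.17 and 0.30 for 79 usable cytosolic ribosomal protein genes and -0.11, -0.19, -0.01 and 0.16 for 70 mitochondrial ones. After quantile normalization they were -0.03, 0.03, 0.02 and -0.03 for the cytosolic genes and 0.08, -0.06, -0.11 and -0.06 for the mitochondrial ones. In these 4 comparisons 1 ribosomal gene of each kind passed 2-fold lower and 1 cytosolic one higher: Rps4l and Mrpl35 were lower in APS plus metformin against both aging diabetic and metformin, Mrpl35 also in metformin against aging diabetic, and Rpl10l was higher with APS against both. Subunits encoded on mitochondrial DNA were not analysed here.

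Assembly factors, which build the complexes and are not part of them, had 41 usable genes of 47. Pet117, a complex IV factor, had levels of -3.50, -2.37, -2.55 and -1.77 on the natural aging, aging diabetic, metformin and APS plus metformin arrays, lowest on natural aging. It was the only assembly factor past 2-fold in aging diabetic against natural aging (2.18-fold higher, error 0.22 in log2). That was 1 of 41 compared, against 8.2% of all genes higher and 6.09% lower. Coa4, another complex IV factor, was the only one in APS plus metformin against aging diabetic (log2 -1.10), where 6.9% of all genes were lower. Cox10, which makes heme for complex IV, was the only one in APS plus metformin against metformin (log2 1.06), where 2.37% of all genes were higher. None passed in metformin against aging diabetic, against 11.9% of all genes higher and 3.53% lower. The list's medians in the 4 comparisons were 0.03, -0.17, -0.05 and 0.18, or 0.16, -0.04, -0.09 and 0.00 after quantile normalization.

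The citric acid cycle and pyruvate dehydrogenase list had 13 usable genes of 18. Dlat, the E2 subunit of pyruvate dehydrogenase, had levels of -1.97, -0.67, -0.31 and 0.03. It was 2.45-fold higher on the aging diabetic than on the natural aging array, where 8.2% of all genes passed 2-fold higher. Idh3b, a subunit of the NAD-linked isocitrate dehydrogenase, had 3.29, 2.90, 2.34 and 3.34. It was the 1 gene of the list past 2-fold in APS plus metformin against metformin, where it was higher, as were 2.37% of all genes. In coenzyme Q synthesis, 11 of 13 genes were usable. Coq8a, a kinase-like protein of that pathway, had -1.94, -1.53, -0.63 and -0.41. It was 2.18-fold higher with APS plus metformin than on the aging diabetic array, where 4.38% of all genes passed 2-fold higher.

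Regulators of respiratory chain genes included several with differences past 2-fold. Of 14 listed, 13 were usable, and all 13 were above background on all arrays. Ppargc1a, the coactivator PGC-1alpha that drives mitochondrial gene programmes, had levels of 1.12 (natural aging), 0.97 (aging diabetic), 1.37 (metformin) and 2.66 (APS plus metformin). The APS plus metformin array stood apart from the other 3, 3.23-fold above aging diabetic (log2 1.69, error 0.16) and 2.45-fold above metformin. Ppargc1b, its relative PGC-1beta, had -1.54, -1.17, -0.84 and 0.62, again highest with APS plus metformin, 3.44-fold above aging diabetic and 2.75-fold above metformin. After quantile normalization the log2 differences against aging diabetic were 1.67 for Ppargc1a and 1.78 for Ppargc1b.

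The ubiquitous subunits on the same pair of arrays differed by a median of 0.06. Gabpb1, a subunit of GABP, had -0.77, 0.57, -1.35 and -1.15 and was high on the aging diabetic array alone. It was 2.53-fold above natural aging there, and 3.78-fold lower with metformin and 3.29-fold lower with APS plus metformin. Its DNA-binding partner Gabpa had 0.01, 0.42, -0.26 and 0.14, and Tfam, the mitochondrial DNA transcription factor, had 1.61, 1.62, 1.57 and 1.72. In APS plus metformin against aging diabetic, 2 of the 13 regulators were at least 2-fold higher and 1 lower, against 4.38% and 6.9% of all genes. In metformin against aging diabetic 0 were higher and 1 lower, against 11.9% and 3.53%.

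**Figure D5:**
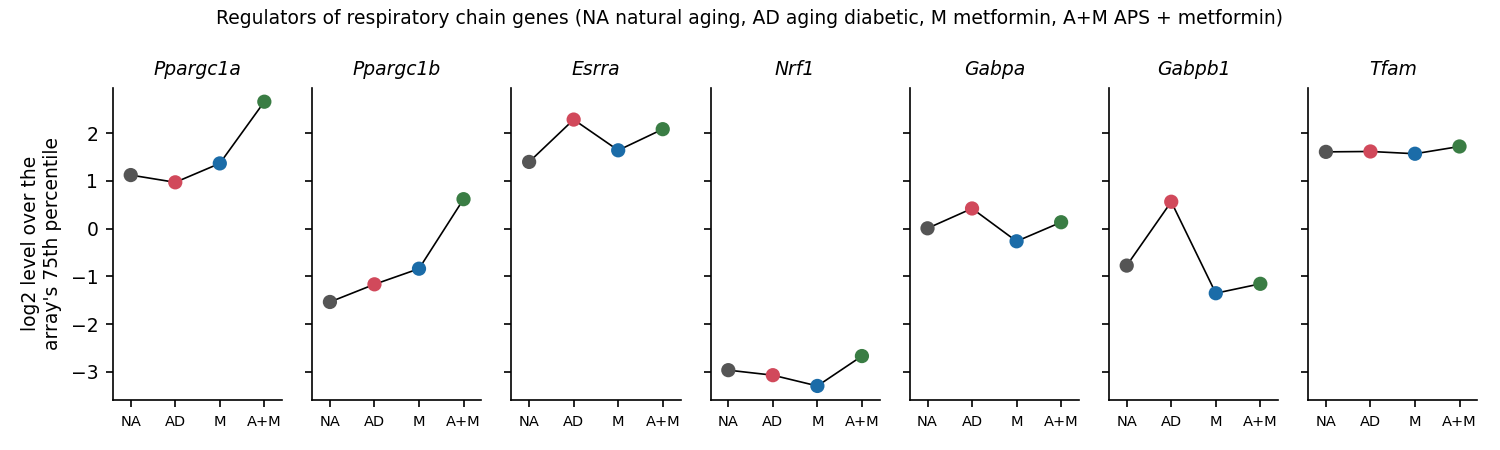
Levels of 7 regulators of respiratory chain genes on the 4 arrays, as log2 over the array's 75th percentile, with 1 point per array joined by a line. Ppargc1a (2.66) and Ppargc1b (0.62) are highest on the APS plus metformin array, Gabpb1 (0.57) on the aging diabetic array, and Tfam stays between 1.57 and 1.72.

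The labelled tissue was checked by its markers. The 6 usable of 8 hepatocyte markers were well above background on all 4 arrays, and the log2 of their summed level was 7.05 on natural aging, 6.76 on aging diabetic, 6.39 on metformin and 6.74 on APS plus metformin. The hepatocyte list was thus lowest on metformin and highest on natural aging, as the median ubiquitous subunit was on this scale (3.68, 3.46, 3.26 and 3.55). After quantile normalization they did not run alike. There the median difference in metformin minus natural aging was -0.16 for the 6 hepatocyte markers and 0.05 for the ubiquitous subunits. Of 7 pancreatic acinar markers, 2 were well above background on APS plus metformin and 7 on each other array. Their summed level on APS plus metformin thus rests partly on values not above background. Among the cell types other than hepatocytes, the log2 summed level ran from -1.35 to 1.42 for 6 lymphocyte markers (highest on metformin), from 3.19 to 4.14 for 5 stellate cell and fibroblast markers (lowest on aging diabetic), and from -2.48 to 5.68 for 7 pancreatic acinar markers (lowest on APS plus metformin, highest on natural aging). It ran from 3.96 to 4.87 for 5 macrophage, from 4.05 to 4.56 for 5 endothelial, from 3.50 to 3.87 for 4 smooth muscle, from 3.97 to 4.53 for 3 erythroid and from 0.78 to 1.33 for 4 white adipocyte markers. Their part in the members' values was not tested.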

How the data were processed

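Whole liver RNA of 4 groups was measured on 1-colour Agilent arrays, 1 array per group, on 1 slide and read in the red channel, per the file headers. The intensity of each spot was deposited as made by Agilent Feature Extraction, version 11.5.1.1 per the file headers and 10.7 per the submitters' processing notes, with background subtraction and spatial detrending inside an array. The other deposited columns used, flags of 0 or 1, mark spots that are well above background, saturated or outliers, per the file headers. The deposited series table holds log2 values normalized by the authors by a method not given in the sources used here; they differed from a quantile normalization of the intensities by an SD of at most 0.004.

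Of 56605 probes, 33767 were matched by transcript accession, without its version, to a symbol in a RefSeq gene table, and 51780 had a usable spot on all arrays after outlier spots were dropped. The probe with the highest mean log2 processed signal stood for a gene (13 members had several probes among 79 member probes). The log2 signal minus the array's 75th percentile was compared with Python 3.11.15, numpy 2.4.6 and pandas 2.3.3. The alternatives used limma 3.58.1 in R 4.3.3. Genes above background on at least 1 of the 2 arrays were compared, with a bound where only 1 was. A log2 difference of 1 in size (2-fold) was counted. The procedure was tested on simulated data. No test across mice was possible, and the single array per group limits the precision.

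Members, gene lists and the rule for named genes were chosen with earlier results of these data known. The rule names members past 2-fold, the extremes of each complex, the Sdh genes, some fixed subunits and form pairs, and list genes past 2-fold. Genes of other kinds were named after their values were seen. Promoter windows are from RefSeq (GRCm38.p6), and the array design's coordinates were not used. Some member results are not reported here.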

Additional observations from a re-analysis of the deposited data

How the results depend on the processing

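The median difference of the 60 compared members on the 75th percentile scale was -0.19 in aging diabetic minus natural aging, and became 0.055 after cyclic loess, -0.0081 without scaling, 0.099 after quantile normalization and 0.085 in the series values. In metformin minus aging diabetic, -0.21 became -0.37 with the array median, 0.019 without scaling and -0.041 in the series values. In APS plus metformin minus metformin, 0.27 became 0.015 after cyclic loess, 0.44 with the array median, -0.034 after quantile normalization and -0.018 in the series values. In metformin minus natural aging, -0.42 became 0.0080, -0.63, -0.0074, 0.0596 and 0.0604 with cyclic loess, the array median, no scaling, quantile normalization and the series values. In APS plus metformin minus natural aging, -0.13 became 0.20 without scaling, 0.040 after quantile normalization and 0.057 in the series values. The cause was not tested. The median of APS plus metformin minus aging diabetic (0.06) moved by less than the error of a difference in every setting, although its sign turned after quantile normalization (-0.077), after cyclic loess (-0.029) and in the series values (-0.048). Counts past 2-fold were 0 in all 6 comparisons without the tissue forms. In aging diabetic against natural aging the count of 2 became 4 without the filter on dim probes and 1 after normexp. In metformin against aging diabetic, 3 became 1 with genes above background on all 4 arrays and 0 after normexp. In APS plus metformin against aging diabetic, 1 became 2 both at 1.5-fold and with the mean over probes. Against metformin, 4 became 2 both with genes above background on all 4 arrays and after normexp. In metformin against natural aging, 5 became 3 with genes above background on all 4 arrays, after normexp, after quantile normalization, in the series values and without bounds. In APS plus metformin against natural aging, 1 became 2 at 1.5-fold, 3 without the filter, and 0 after cyclic loess, with the array median, after normexp, after quantile normalization and in the series values. Over all alternatives, 105 of these medians and counts stayed within the error or within 1.5 times the count, and 45 moved further. No single gene past 2-fold turned its sign. Normexp on the mean spot signal was not run; the median spot signal took its place, an alternative chosen after seeing the data, as were no scaling, leaving out the tissue forms and leaving out bounds. No paired analysis was possible because each group has 1 array. Dim signal limits Cox6a2, Cox7b2, Cox8b and Ndufa4l2.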
